A study of Mus musculus with 15 samples.

Results

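Flt1 and Edn1 were 2 of the 754 genes counted in every library of a panel for myeloid innate immunity. Flt1 encodes vascular endothelial growth factor (VEGF) receptor 1, and Edn1 encodes the precursor of endothelin-1. Both were chosen by name as vascular signalling genes, with their counts over the 4 groups already known. Those counts are therefore described with their errors and carry no test.

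The libraries came from mouse bone marrow-derived macrophages (BMDMs), grown from marrow progenitors in M-CSF and then conditioned for 4 days. The MPLA group (4 libraries) received 20 ng/mL of monophosphoryl lipid A, an agonist of the bacterial sensor TLR4, and served as the M1-like standard. The IL4 group (4 libraries) received 20 ng/mL of interleukin 4 and served as the M2-like standard. IL4-conditioned cells were also exposed for 1 h to 1 µg of nanoparticles, either IRF5-NPs (3 libraries, numbered 1, 2 and 4) or eGFP-NPs (4 libraries). This amount is from the labels, and the study's methods give a different one, as mRNA. Per the study's methods, IRF5-NPs carried mRNA for the transcription factor IRF5, for its kinase IKKβ and for the reporter eGFP, and eGFP-NPs carried eGFP mRNA as the control. The methods also state that cells of both nanoparticle groups were sorted for bright eGFP and kept in IL4 at a lower dose before RNA isolation, a step not described for the standards. The groups with nanoparticles therefore differ from IL4 in sorting and in culture history as well as in cargo, and these cannot be told apart. The labels give no strain, sex or age of the mice, and do not say whether libraries of a group came from separate cultures.

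VEGF receptor 1 binds VEGF-A, VEGF-B and placental growth factor. On endothelium it is best known as a decoy that holds VEGF-A away from the main signalling receptor, and on monocytes and macrophages it acts as a receptor for chemotaxis. Endothelin-1 is a peptide that constricts vessels through the receptors EDNRA and EDNRB. Endothelium is its main source, and macrophages and epithelia can also make it.

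The promoter windows are shown because both genes belong to families that cytokine, toll-like receptor and hypoxia signals are known to regulate. Each runs from 250 bases before to 50 bases after the transcript start used in RefSeq for GRCm38.p6, on the strand of the gene. The Flt1 window is chr5:147725962-147726261 on the minus strand, and the Edn1 window is chr13:42301226-42301525 on the plus strand. The annotated Flt1 gene extends upstream to base 147726438, beyond its window, so Flt1 positions are counted from a start inside the annotated gene. Capitals mark every match to a motif searched on both strands.
Flt1: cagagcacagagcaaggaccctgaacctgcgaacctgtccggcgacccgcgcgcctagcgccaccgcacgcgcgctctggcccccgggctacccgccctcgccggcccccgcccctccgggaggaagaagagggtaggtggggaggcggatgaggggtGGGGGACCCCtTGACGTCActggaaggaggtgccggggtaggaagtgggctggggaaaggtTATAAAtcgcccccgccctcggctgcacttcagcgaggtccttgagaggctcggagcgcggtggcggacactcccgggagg
Edn1: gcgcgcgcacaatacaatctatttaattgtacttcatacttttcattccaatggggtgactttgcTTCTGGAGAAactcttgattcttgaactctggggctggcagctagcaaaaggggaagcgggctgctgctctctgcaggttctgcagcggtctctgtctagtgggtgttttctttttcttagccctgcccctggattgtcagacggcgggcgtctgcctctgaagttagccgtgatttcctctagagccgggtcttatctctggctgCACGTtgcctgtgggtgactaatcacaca

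The motifs were an NF-kB site, the cyclic AMP response element TGACGTCA, the AP-1 site TGANTCA, a STAT6-type site (TTC and GAA with any 4 bases between them), the hypoxia response core ACGTG and the box TATAAA. The Flt1 window held an NF-kB match from base -92 to -83, the cyclic AMP element from -81 to -74 and the box from -31 to -26, counted from the start. Among the 32851 mouse promoter windows of this length, 8.46% held the NF-kB motif, 1.79% the cyclic AMP element and 13.6% the box. The Edn1 window held a STAT6-type match from -185 to -176, a motif found in 6.95% of all windows. It also held the hypoxia core on the opposite strand from base 22 to 26, a motif found in 19.6% of windows. The AP-1 letters, found in 7.81% of windows, were in neither window. The counts measure RNA, so these matches describe letters only and were not tested as sites.

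Total gene counts ran from 266169 in IRF5-NP 4 to 1784833 in MPLA 1. The background of a library was set at the mean plus 2 SD of its 8 negative control probes, between 19.7 and 34.9 counts in the deposited libraries. Levels are in CPM, the count scaled to a common library total, with totals adjusted by TMM, a method that trims extreme genes. Libraries 1 and 2 of eGFP-NP differed by no more than counting noise (chi-square per degree of freedom 1.09, p = 0.0817) and were summed as a single library, named 1-2, leaving 3 in that group and 14 in all. Another 4 pairs had values from 1.36 to 2.56, against 41.4 or more for all other pairs within groups. In MPLA library 1 matched 4 in this way and 2 matched 3, in eGFP-NP 3 matched 4, and in IRF5-NP 1 matched 2. These 4 pairs were kept separate, so the spread between libraries may be understated.

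Flt1 was near the detection limit in MPLA and well above it in IL4. The MPLA libraries held 16, 4, 12 and 11 Flt1 counts, each below its background. The IL4 libraries held 244, 247, 361 and 770. All MPLA libraries thus sat below all IL4 libraries, and no library of either group crossed over. On the CPM scale the IL4 libraries lay at 215, 178, 344 and 471, and the MPLA libraries at 8.36, 2.32, 6.28 and 5.81. Taking each MPLA library at its background, Flt1 was at least 17.7-fold lower in MPLA than in IL4. The fitted log2 difference was -5.69 ± 0.51 (SE, n = 4 and 4) and depends on counts below background, so the bound is the safer value. Bulk RNA does not tell fewer Flt1-positive cells from less Flt1 RNA per cell.

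Edn1, the ligand gene, was also lower in MPLA than in IL4, by less, and stayed measurable in both. Its counts were 86, 59, 66 and 93 in the MPLA libraries, all above background. In the IL4 libraries they were 474, 89, 98 and 265. In CPM the MPLA libraries lay between 34.2 and 49.2 and the IL4 libraries between 64.1 and 418, with no overlap. The log2 difference of Edn1 was -2.18 ± 0.59 (SE, n = 4 and 4). IL4 1, the library with most Edn1, set much of its size, and without that library the difference was -1.37. Over the whole panel, 15.1% of genes had all MPLA libraries below all IL4 libraries, so this ordering was not rare in these data.

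**Figure D1:**
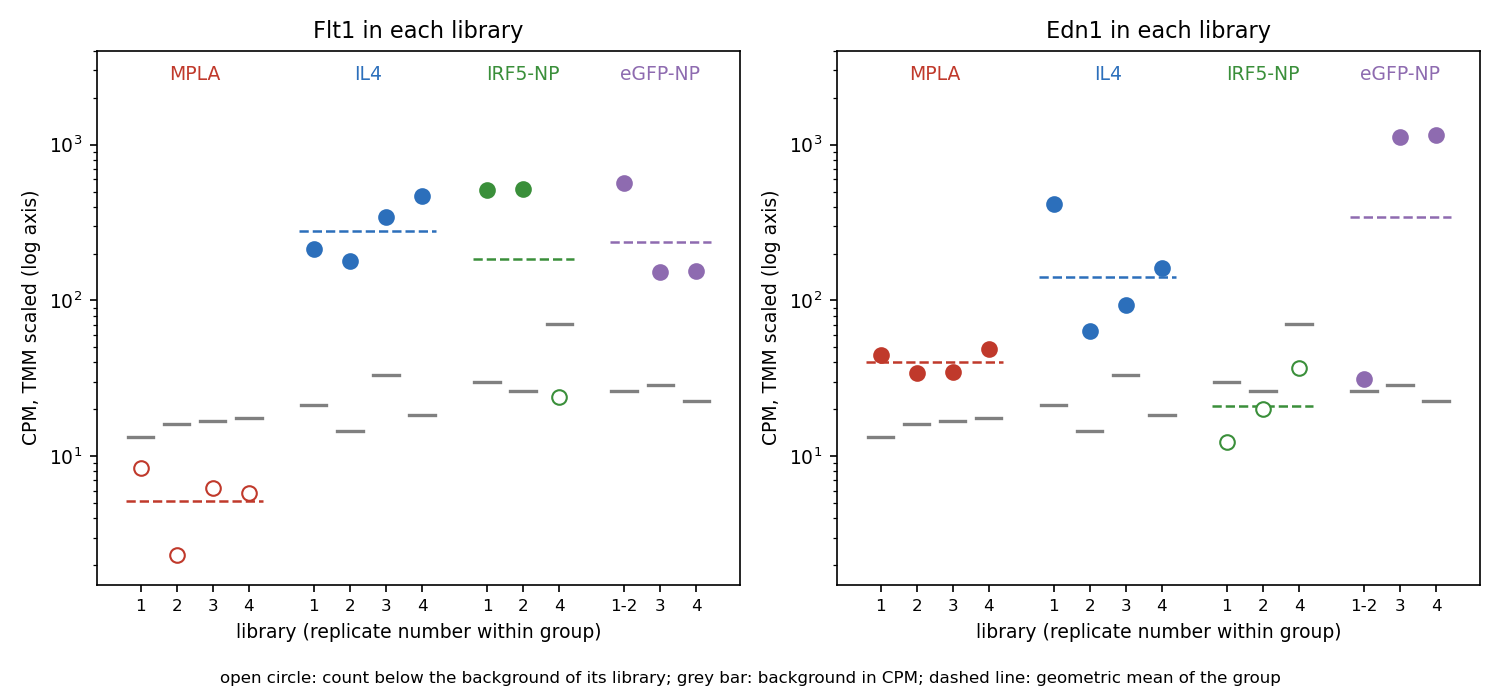
Flt1 (left) and Edn1 (right) in each library, in TMM-scaled CPM on a log axis, with groups in colour, grey bars for the background of each library and dashed lines for the geometric mean of a group. Open circles are counts below background: all 4 MPLA libraries and IRF5-NP 4 for Flt1, and all 3 IRF5-NP libraries for Edn1.

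The IL4 libraries themselves ranged widely. The highest over the lowest was 2.65-fold for Flt1 and 6.52-fold for Edn1. IL4 4 was highest for Flt1 and IL4 1 for Edn1, while IL4 2 was lowest for both with TMM scaling. With housekeeping scaling IL4 1 was lowest for Flt1 (7.84 against 8.01 log2 CPM in IL4 2). The order of the libraries thus differed between the receptor gene and the ligand gene.

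Flt1 divided the IRF5-NP libraries into 2 levels. IRF5-NP 1 and 2 held 577 and 567 Flt1 counts (510 and 522 CPM), above all 4 IL4 libraries. IRF5-NP 4 held 11, below its background. That library had the lowest total count of the series, and its background was 70.5 CPM, so the lowest Flt1 level of an IL4 library would have stood 2.52 times above it. Flt1 at the level of any IL4 library would thus have been measurable there. The group overlapped IL4 on both sides, with a log2 difference of 0.08 ± 0.87 (SE, n = 3 and 4). Leaving out IRF5-NP 4 gave 0.63, whereas leaving out IRF5-NP 1 or 2 gave -0.26 or -0.34, and leaving out IL4 1 gave -0.06. The means of log2 CPM, which weight each library equally, put IRF5-NP below IL4 (7.56, or 8.06 with IRF5-NP 4 at its background, and 8.14), so the direction for Flt1 was not settled.

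Edn1 was below background in all 3 IRF5-NP libraries, at 14, 22 and 17 counts. With these at their backgrounds it was at least 3.73-fold lower than in IL4. The measured CPM were 12.4, 20.3 and 37.0, all under the lowest IL4 library, and the log2 difference was -3.11 ± 0.83 (SE, n = 3 and 4), or -2.33 without IL4 1. Over the panel 4.38% of genes had every IRF5-NP library below every IL4 library. For IRF5-NP 4 the depth did limit the reading, because the level of IL4 2 was 0.909 of its background and could not have been seen there.

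With the control particles, Flt1 was measurable in every library and Edn1 was extreme in its spread. eGFP-NP 1 and 2 held 618 and 664 Flt1 counts, and eGFP-NP 3 and 4 held 155 and 133. For Edn1 the order turned, with 37 and 34 counts in libraries 1 and 2 and 1153 and 1003 in libraries 3 and 4. The libraries with most Flt1 in this group were those with least Edn1, by 3.76-fold for Flt1 and 36.7-fold for Edn1 between the extremes. Against IL4 the log2 difference was -0.19 ± 0.62 for Flt1 and 1.93 ± 1.09 for Edn1 (SE, n = 3 and 4), with overlap for both genes. Without eGFP-NP 1-2 these became -0.98 and 2.63, and without eGFP-NP 3 they became 0.12 and 1.56. For Edn1 the difference was 2.71 without IL4 1, and 0.47 with the replicate block and eGFP-NP 1 and 2 separate. The direction for Flt1 also turned without eGFP-NP 4 (0.11), IL4 3 (0.02) or IL4 4 (0.14).

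IRF5-NP against eGFP-NP is the comparison that separates cargo from particle uptake. The log2 difference was 0.21 ± 1.07 for Flt1 and -4.99 ± 1.42 for Edn1 (SE, n = 3 and 3). Neither gene separated the groups, since eGFP-NP 1-2 at 31.6 CPM of Edn1 lay within the IRF5-NP range and IRF5-NP 4 lay below all eGFP-NP libraries for Flt1. Leaving out IRF5-NP 4 gave 0.81 for Flt1, and leaving out eGFP-NP 1-2 gave 1.14. Leaving out any of the other 4 libraries turned the sign, to between -0.21 and -0.04. The mean log2 CPM of Flt1 in IRF5-NP was 7.56 as measured and 8.06 with IRF5-NP 4 at its background, on either side of the 7.90 of eGFP-NP, so no direction can be given. For Edn1, with IRF5-NP at its backgrounds, the level was at least 9.08-fold lower than the mean of eGFP-NP, a mean that libraries 3 and 4 set.

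Same-numbered libraries of these 2 groups had correlations of 0.823, 0.821 and 0.818 over the panel, for their deviations from the group means. Given the nearly identical pairs within each group, these values restate the same contrast, number 4 against numbers 1 and 2. eGFP-NP 3 could stand in for eGFP-NP 4, its near match, so the values do not show that libraries pair by number. Numbers 1 and 2 do not count as separate pairs here, since eGFP-NP 1 and 2 differed by no more than counting noise and IRF5-NP 1 and 2 were nearly identical. With eGFP-NP 1 and 2 taken separately, IRF5-NP minus eGFP-NP for Flt1 was -0.13 and -0.15 log2 CPM for numbers 1 and 2, or -0.02 and 0.03 with housekeeping scaling. For number 4, with IRF5-NP at its background, Flt1 was at least 2.18-fold lower. Flt1 was thus lower in number 4 and close to level in numbers 1 and 2. Edn1 was at least 16.5-fold lower with IRF5-NP in number 4. In numbers 1 and 2 the eGFP-NP counts of 37 and 34 stood little above their backgrounds of 29.4 and 30.5, and the IRF5-NP counts lay below theirs, so no fold is given. A fit with the replicate number as a block and eGFP-NP 1 and 2 separate gave -0.83 for Flt1 and -2.40 for Edn1. Separating those libraries without the block gave -0.03 and -4.81.

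**Figure D2:**
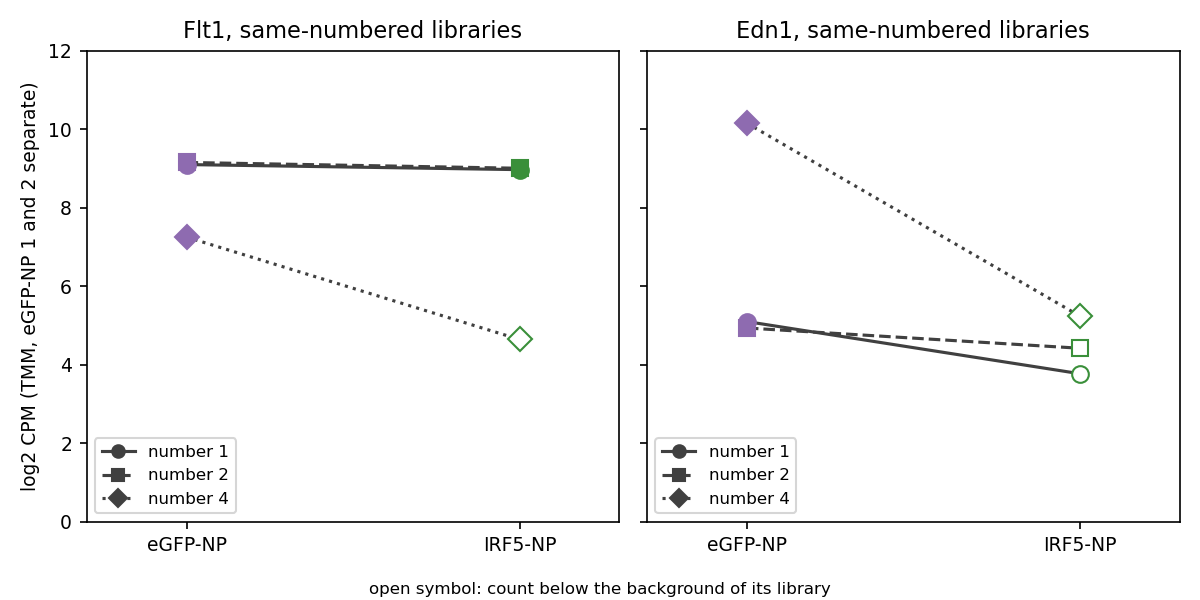
Log2 CPM of Flt1 (left) and Edn1 (right) in eGFP-NP and IRF5-NP libraries of the same replicate number, joined by lines, with open symbols for counts below background. The lines of numbers 1 and 2 are nearly flat for Flt1, and number 4 has the steepest line for both genes.

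In mean log2 CPM, Flt1 was 8.14 ± 0.64 in IL4 (SD, n = 4), 7.90 ± 1.09 in eGFP-NP (n = 3), 7.56 ± 2.51 in IRF5-NP (n = 3) and 2.75 ± 0.59 in MPLA (n = 4). The first 3 overlapped in their libraries and have no settled order, since IRF5-NP passes eGFP-NP with its undetected library at background (8.06). Flt1 in MPLA lay below every library in which it was detected and was at least 14.9-fold lower than in eGFP-NP. That bound was raised by eGFP-NP 1-2, at 570 CPM against 151 and 154 in eGFP-NP 3 and 4. MPLA and IRF5-NP 4 cannot be ordered, since Flt1 was undetected in both. Edn1 was 8.45 ± 2.95 in eGFP-NP, 7.17 ± 1.16 in IL4 and 5.38 ± 0.26 in MPLA. For IRF5-NP, undetected throughout, the measured mean was 4.50 ± 0.74 and the mean of the backgrounds 5.25. Its place relative to MPLA was not settled, since the background of IRF5-NP 4 exceeded every MPLA value. The neighbours eGFP-NP and IL4 overlapped, whereas IL4 and MPLA did not.

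Marker genes of another cell type differed widely between the libraries and moved with some of these levels. The panel held 11 of 15 listed macrophage genes, of which 9 or 10 were above background in every library. It held 7 of 16 fibroblast genes, namely the collagens Col1a2 and Col3a1, the matrix genes Fn1 and Timp3, the cadherin Cdh11 and the growth factor receptors Pdgfra and Pdgfrb. Their mean was 12.5 to 12.7 log2 CPM in MPLA and 4.67 to 11.9 in IL4. In IRF5-NP it was 4.15, 4.00 and 11.0, and in eGFP-NP it was 4.02 (1-2), 11.5 and 11.6. Summed fibroblast counts were 148989 to 176044 in MPLA and 323 to 83025 in IL4. With nanoparticles they were 123 to 10742 (IRF5-NP) and 116 to 41774 (eGFP-NP). The 3 libraries with the lowest fibroblast means had the highest Flt1, 510 to 570 CPM. The libraries with most Edn1, eGFP-NP 3 and 4, had high fibroblast means, yet MPLA had the highest means of all with low Edn1.

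Over all 14 libraries Pearson's r between Flt1 and the fibroblast mean was -0.73, and over the 10 IL4-conditioned libraries it was -0.66. For Edn1 the values were 0.38 and 0.70. Edn1 ran against the macrophage mean, with r of -0.79 and -0.77, while Flt1 gave 0.01 and 0.67. Flt1 and Edn1 themselves gave 0.19 and -0.25. These describe libraries that fall into groups and share scaling, and carry no p. With the fibroblast mean as a covariate the Flt1 difference was -5.43 for MPLA against IL4 and -1.86 for IRF5-NP against IL4, so the latter changed in size and sign. It was -0.55 for eGFP-NP against IL4 and -0.97 for IRF5-NP against eGFP-NP, where the sign also changed. For Edn1 with that covariate the differences were -2.68 for MPLA and -2.61 for IRF5-NP against IL4, 1.12 for eGFP-NP against IL4, and -2.66 for IRF5-NP against eGFP-NP. The MPLA values extrapolate, since all MPLA fibroblast means (12.5 to 12.7) lay above all IL4 means (4.67 to 11.9). Among nanoparticle libraries the mean was low in numbers 1 and 2 and high in 3 and 4. The covariate cannot be told apart from that split, so these are not effects corrected for cell content.

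Endothelium, the textbook source of both transcripts, had little sign in the libraries. Of 14 listed endothelial genes 4 were in the panel. Cdh5, the junction protein VE-cadherin, had 5 to 27 counts and passed background only in IL4 2. Tek, the angiopoietin receptor, had 6 to 58 counts and also passed only in IL4 2. Sele, the adhesion molecule E-selectin, passed in none of the 15 libraries, and the transcription factor gene Erg passed in IL4 2 and IL4 4. Summed over the 4 genes, MPLA libraries held 54 to 75 counts, IL4 libraries 63 to 125, IRF5-NP libraries 53 to 77 and eGFP-NP libraries 29 to 57.

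**Figure D3:**
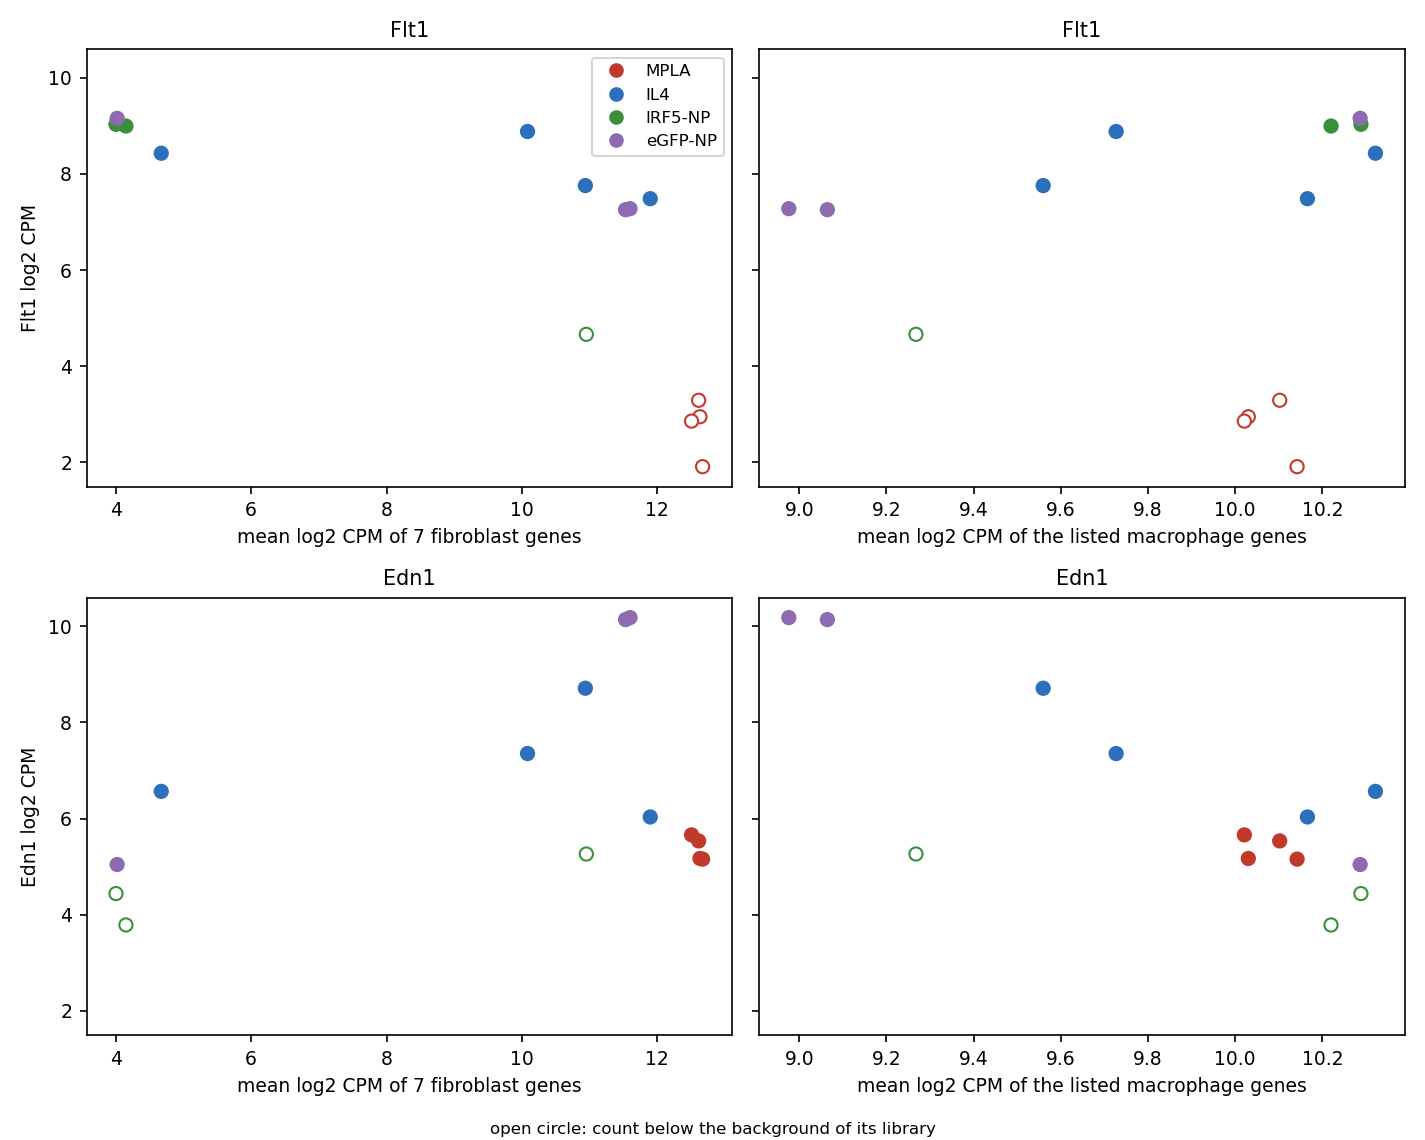
Log2 CPM of Flt1 (top) and Edn1 (bottom) against the mean log2 CPM of 7 fibroblast genes (left) and 11 macrophage genes (right), with a circle for each of 14 libraries, coloured by group and open where the count was below background. Flt1 is highest at the lowest fibroblast means, and Edn1 is highest at the lowest macrophage means.

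The rest of the vascular pathways gave the part of the comparison that could be tested. A list of 87 genes was set, of which 29 were on the panel besides Flt1 and Edn1. It held 2 of 6 VEGF-family ligands, none of the 4 other VEGF receptors and coreceptors, and none of the 7 other endothelin axis genes. It also held 3 of 7 angiopoietin axis genes and 24 of 63 other angiogenic genes. The partners of Flt1 and Edn1 were therefore mostly not measured. Of the 29, 15 were above background in every library and 3 in fewer than 7 of 14.

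In MPLA against IL4, 4 of the 29 list genes (13.8%) were higher and 0 lower by edgeR's quasi-likelihood test at an adjusted p under 0.05. Over the panel 199 of 754 genes (26.4%) passed, 92 higher (12.2%) and 107 lower (14.2%). The median log2 difference was 0.49 over the list and -0.05 over all genes. Leaving out a library moved these counts. Without MPLA 1, 2, 3 or 4 the list calls were 0, 1, 2 and 1 and the panel calls 74, 98, 109 and 81, and without IL4 2 the list calls were 9, of which Angpt2, Pdgfa, Pdgfb and Tgfb1 (4 genes, the last 3 named after their values were seen) were lower in MPLA. DESeq2 called 8 list genes, with Angpt2, Tek and Tgfb1 lower. That no list gene was lower thus depends on the library and the tool. With the nearly identical pairs merged, 0 list genes and 20 panel genes passed.

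Hif1a, the oxygen-regulated factor that drives VEGF genes, rose by 1.70 ± 0.37 (log2, SE, adjusted p = 0.0138, edgeR). It held 11248 to 15623 counts in MPLA and 2454, 5004, 1177 and 3003 in IL4. S1pr1, a receptor for the vessel-stabilising lipid sphingosine 1-phosphate, rose by 1.64 ± 0.45 (adjusted p = 0.0334, edgeR), from 320, 161, 59 and 206 counts in IL4 to 767 to 896 in MPLA. Mmp9, a matrix protease, rose by 1.39 ± 0.35 (adjusted p = 0.0237, edgeR), from 52, 36, 70 and 103 counts to 173 to 315. Sphk1, the kinase that makes sphingosine 1-phosphate, rose by 1.09 ± 0.30 (adjusted p = 0.0319, edgeR), with 37, 19, 25 and 33 counts in IL4, of which 2 were above background, and 75 to 113 in MPLA. Sphk1 lay outside the rule for named genes and was named after its values were seen. All 4 moved against the direction of Flt1 and Edn1. Without MPLA 1, Hif1a had an adjusted p of 0.0523 (edgeR), and the other 3 also lost their calls. Over all 18 alternatives the 4 genes kept their direction, and Hif1a was not called in 5, Mmp9 in 8, S1pr1 in 10 and Sphk1 in 11. With the fibroblast covariate Hif1a and Mmp9 were called, and S1pr1 (adjusted p = 0.198, edgeR) and Sphk1 (adjusted p = 0.105, edgeR) were not. That fit extrapolates, since no IL4 library reached the fibroblast mean of any MPLA library.

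The VEGF ligand genes were called by edgeR in none of the comparisons. Vegfa, the main ligand of VEGF receptor 1, had 911 to 1083 counts in MPLA and 322, 1492, 180 and 797 in IL4. In IRF5-NP it had 48, 50 and 159, and in eGFP-NP 97, 74, 430 and 394. Scaled for depth, the IRF5-NP libraries ran from 42.4 to 346 CPM and the IL4 libraries from 171 to 1074 CPM, with overlap. Its log2 differences were 0.09 ± 0.51 for MPLA and -1.89 ± 1.00 for IRF5-NP against IL4 (adjusted p = 0.813, edgeR). Over the alternatives the first ran from -0.69 to 0.74, with its sign kept in 12 of 18, and the second from -3.65 (without IRF5-NP 4) to -1.13 (without IL4 2). Vegfc, a lymphatic growth factor, had 467 to 662 counts in MPLA, 307, 237, 55 and 605 in IL4, 111, 94 and 129 in IRF5-NP, and 72, 82, 377 and 318 in eGFP-NP. Scaled for depth, Vegfc ran from 86.6 to 280 CPM in IRF5-NP, within the 52.4 to 370 CPM of IL4. In both ligand genes IL4 3 was the lowest IL4 library.

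With all libraries, the angiopoietin genes passed edgeR's test in none of the comparisons. Angpt1, which activates the receptor Tek, had 106 to 117 counts in MPLA, 105, 88, 35 and 38 in IL4, 48, 47 and 23 in IRF5-NP, and 28, 41, 103 and 84 in eGFP-NP. Scaled for depth, Angpt1 lay between 42.4 and 50.0 CPM in IRF5-NP and between 23.2 and 92.6 CPM in IL4. Angpt2, its context-dependent antagonist, had 83 to 111 counts in MPLA and 224, 72, 97 and 102 in IL4, with a log2 difference of -0.92 ± 0.43 (adjusted p = 0.146, edgeR). In IRF5-NP it had 56, 75 and 26, and in eGFP-NP 85, 88, 98 and 92. Tek had a difference of -1.13 in MPLA (adjusted p = 0.0622, edgeR), at counts mostly below background. DESeq2 called both Angpt2 (adjusted p = 0.0472) and Tek (adjusted p = 0.0152) lower in MPLA. By edgeR, Angpt2 was called without IL4 2 (adjusted p = 0.0496) and Tek without IL4 4 (adjusted p = 0.0281).

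Against IL4, 0 of the list genes passed with IRF5-NP (0% of the panel) and 0 with eGFP-NP (0%), and 0 passed for IRF5-NP against eGFP-NP (0%), by edgeR. At an unadjusted p under 0.05, 0, 1 and 0 list genes and 53, 84 and 42 panel genes passed. DESeq2 called 19, 56 and 6 genes of the panel. The list medians were -0.23, 0.27 and -0.42, against -0.14, -0.08 and 0.10 over all genes. With 3 libraries in each nanoparticle group, of which some were nearly identical, these comparisons gave little precision.

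**Figure D4:**
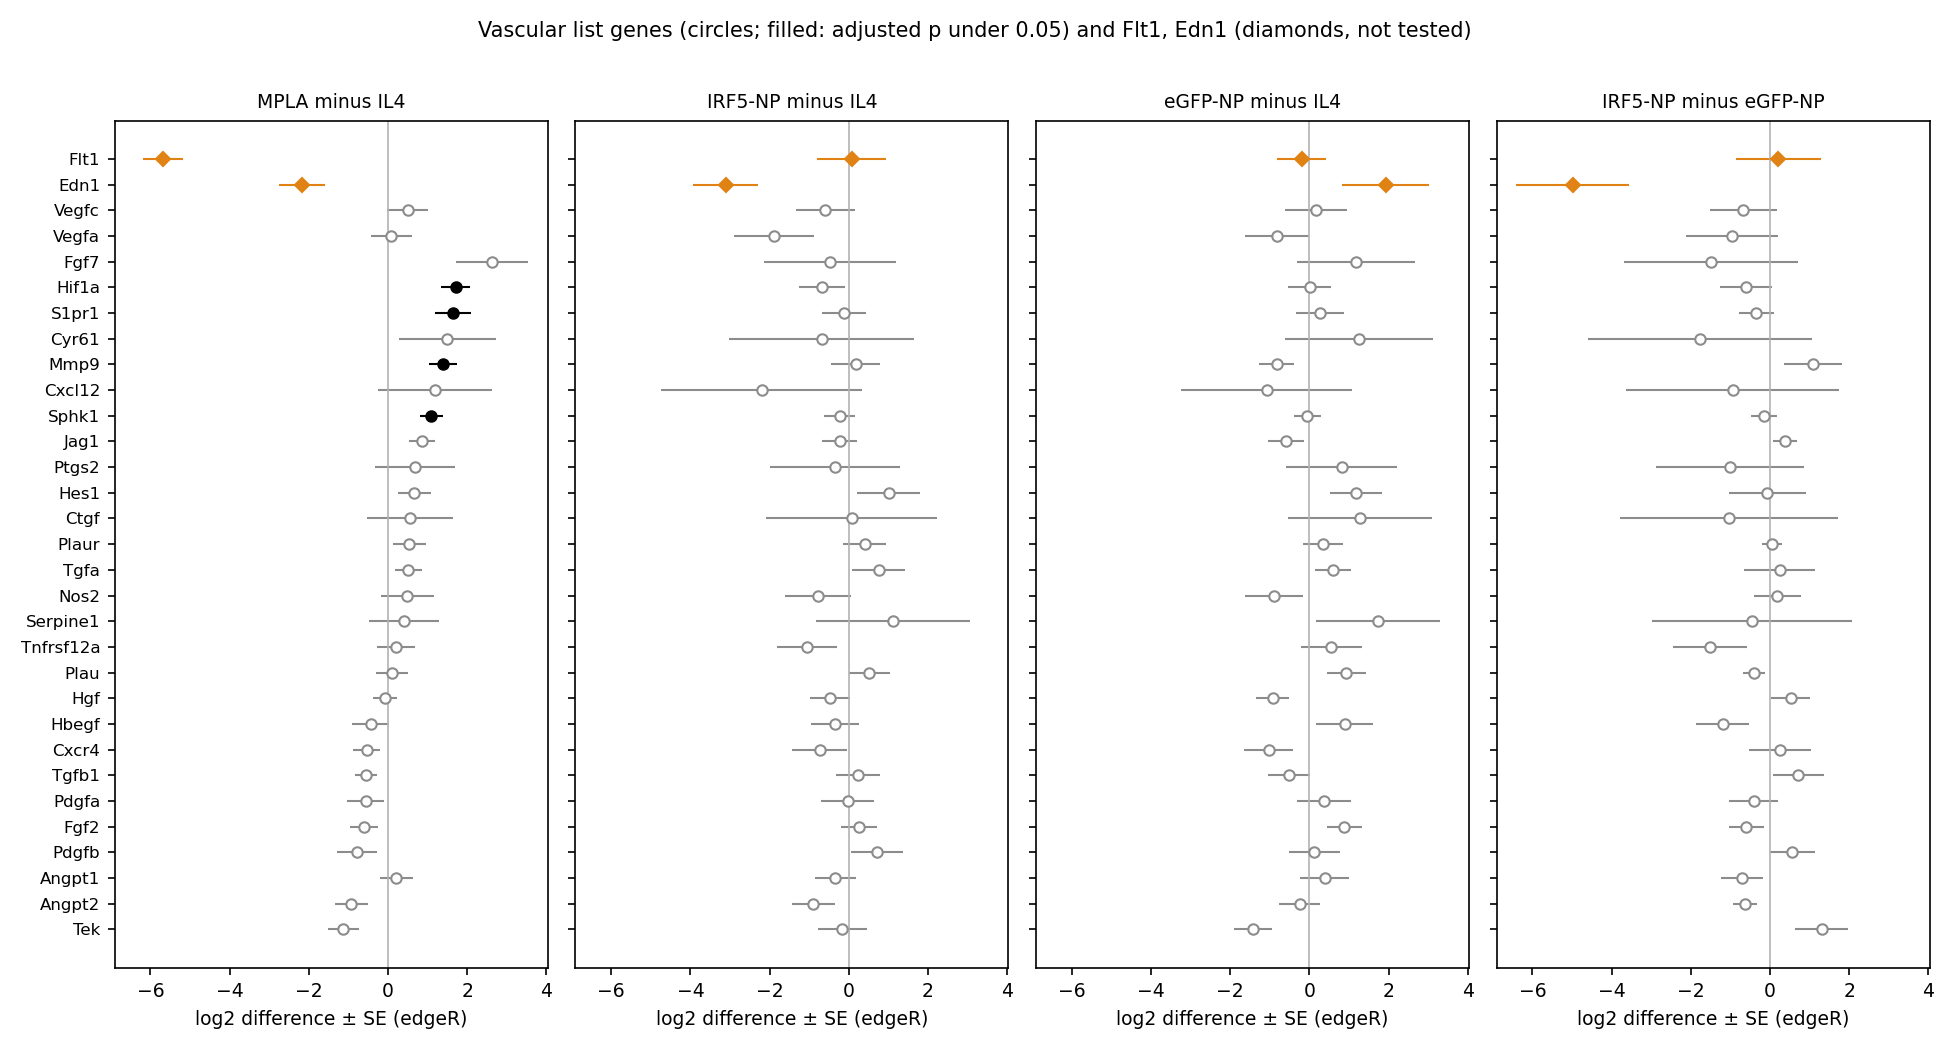
Log2 difference ± SE (edgeR) of Flt1 and Edn1 (diamonds, not tested) and of the 29 other vascular list genes (circles, filled at an adjusted p under 0.05) in the 4 comparisons. Only Hif1a, S1pr1, Mmp9 and Sphk1 are filled, all in MPLA minus IL4, and Flt1 in that panel lies furthest from 0.

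Among 549 genes above background in at least 7 of 14 libraries, the genes whose log2 CPM ran most like Flt1 were Cytip (Pearson's r 0.95), Clec7a (0.93), Batf3 (0.93), Chil4 (0.90) and Ptgs1 (0.90). Clec7a encodes the beta-glucan receptor dectin-1, Batf3 a transcription factor of dendritic cells, Chil4 a chitinase-like protein induced in alternatively activated macrophages, and Ptgs1 cyclooxygenase 1. Those most opposite were Marco (-0.97), Cxcl2 (-0.96), Fpr1 (-0.95), Fpr2 (-0.95) and Fgf10 (-0.94). Marco is a scavenger receptor for bacteria, Cxcl2 a neutrophil chemokine, and Fpr1 and Fpr2 receptors for formylated bacterial peptides. In mean log2 CPM all 5 similar genes were lower, and all 5 opposite genes higher, in MPLA than in each other group. This follows largely from how they were picked, since Flt1 itself was lowest in MPLA, where all its counts were below background. Within the 10 IL4-conditioned libraries r stayed at 0.93 for Cytip and 0.94 for Clec7a, and was 0.52 for Ptgs1, -0.89 for Marco and -0.90 for Cxcl2. Some of these leaned on IRF5-NP 4, where Flt1 was undetected. Over the other 9 of these libraries r was 0.85 for Cytip, 0.79 for Clec7a, 0.61 for Ptgs1, -0.82 for Marco and -0.61 for Cxcl2, a check chosen after seeing the data.

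For Edn1 the most similar genes were Adamts14 (0.85), Calr (0.81), Ets1 (0.80), Emp1 (0.78) and Txn1 (0.77). Adamts14 encodes a protease that processes collagen precursors, Calr the chaperone calreticulin, Ets1 a transcription factor, Emp1 a membrane protein and Txn1 thioredoxin. Most opposite were Adgre1 (-0.86), Stab1 (-0.84), Ceacam1 (-0.83), Alox5 (-0.81) and Cxcr3 (-0.79). Adgre1 encodes the macrophage antigen F4/80 and is in the macrophage list above, and Stab1 encodes a scavenger receptor of alternatively activated macrophages. Within the 10 IL4-conditioned libraries r was 0.87 for Adamts14, -0.88 for Adgre1 and -0.92 for Stab1. Each of the 5 similar genes was highest in eGFP-NP 3 or 4, the nearly identical pair. Edn1 was highest there as well, so this too follows largely from how they were picked. By Spearman's rank, 1 of the 5 genes most like Flt1 and 3 of the 5 most like Edn1 were again among the first 5.

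**Figure D5:**
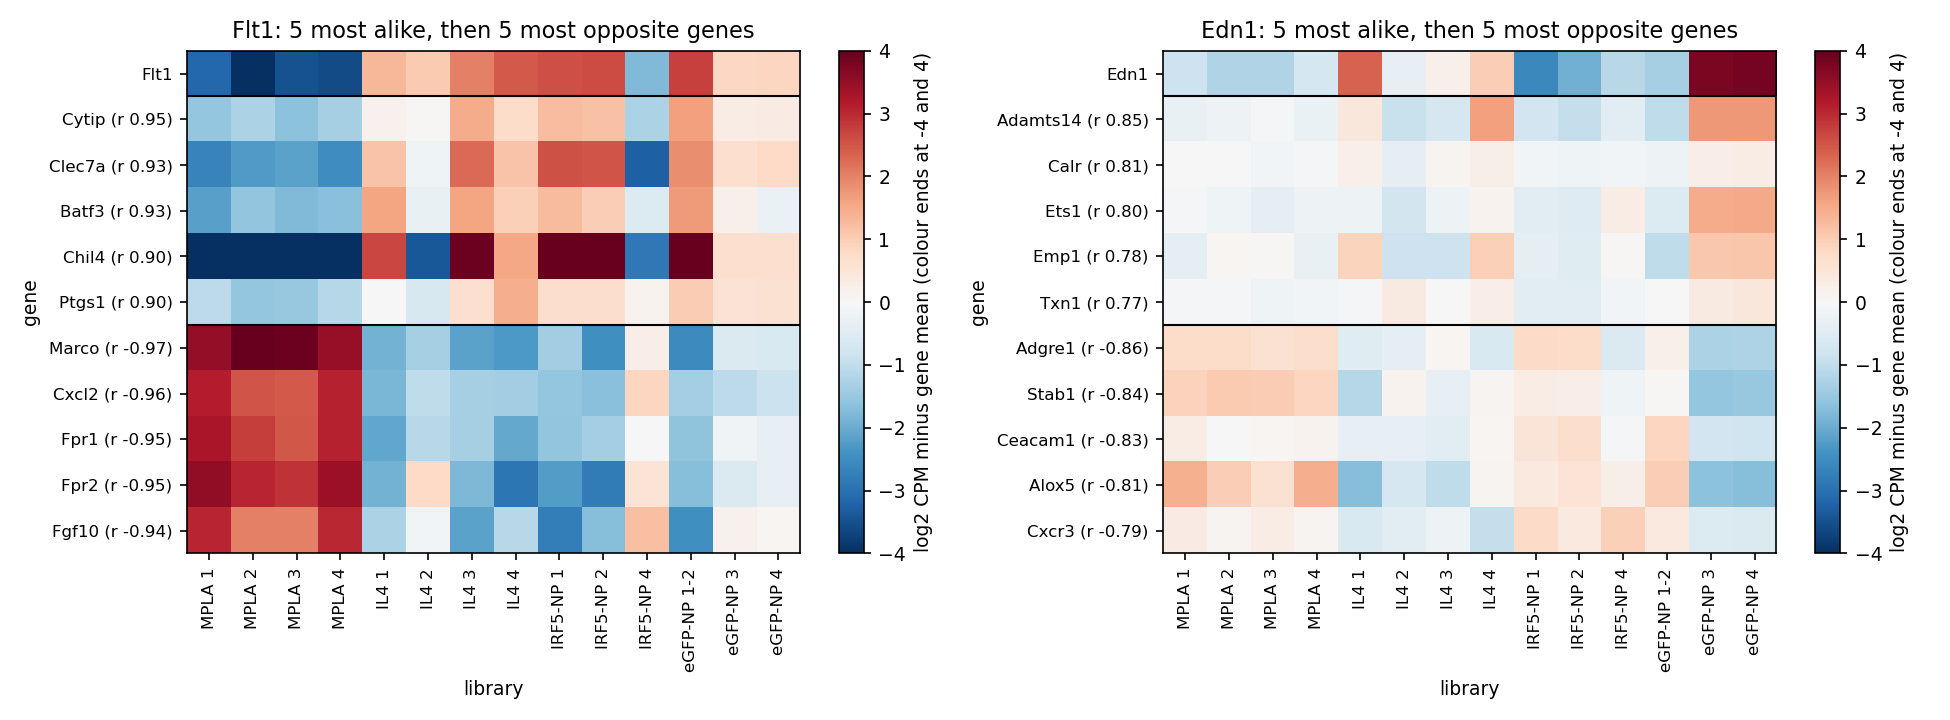
Log2 CPM minus the gene's mean over 14 libraries for Flt1 (left) and Edn1 (right), each with the 5 genes of highest and the 5 of lowest Pearson correlation, in a colour scale that ends at -4 and 4 and that some values pass. Flt1 and its 5 similar genes are low in MPLA, and Edn1 is highest in eGFP-NP 3 and 4.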

How the data were processed

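RNA was counted with nCounter barcoded probes (NanoString, a mouse myeloid panel). The authors deposited raw counts per probe for 15 libraries, as 768 rows holding 754 genes, 6 positive and 8 negative controls, with no normalization applied. Assay lane and cartridge were not given in the sources used here. Of the gene names, 744 matched a RefSeq symbol and 9 a synonym.

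Genes were tested with edgeR 4.0.16 in R 4.3.3 (TMM scaling, quasi-likelihood test, Benjamini-Hochberg adjustment over all 754 genes, threshold 0.05), with a fit for each pair of groups and eGFP-NP 1 and 2 summed. Log2 CPM used a prior count of 2. The fitting script was tested on simulated data. Alternatives were DESeq2 1.42.0, the methods' t-test on housekeeping-scaled values (19 housekeeping genes picked from general knowledge), other scalings, a filter on low counts, a fit of all 4 groups, merged near-identical pairs, a replicate block, a fibroblast covariate, and each library left out. Named were Flt1, Edn1, all VEGF, endothelin and angiopoietin list genes on the panel, up to 3 called genes each way of the other list genes, and the 5 genes most and least correlated with each. The members, lists and tests were chosen with earlier results of these data known. Same-numbered IRF5-NP and eGFP-NP libraries deviated together (correlations 0.818 to 0.823), but with nearly identical libraries these values restate the same contrast and do not show pairing. In the other comparisons the correlations ran from -0.82 (eGFP-NP and IL4, number 3) to 0.32 (eGFP-NP and IL4, number 4). The labels do not state separate cultures. A figure legend of the study calls its samples biologically independent, with a number per group that differs from the libraries analysed here, so it could not be tied to them. The p-values measure only the spread between these libraries, which may be technical. Background and depth are given with the results.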

Additional observations from a re-analysis of the deposited data

How the results depend on the processing

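Flt1 stayed lower in MPLA than in IL4 under all 18 alternatives (log2 difference -5.96 to -5.40), as did Edn1 (-2.68 to -1.37). Edn1 also kept its direction in all alternatives for IRF5-NP against IL4 (-3.63 to -2.33), for eGFP-NP against IL4 (0.47, with the replicate block and eGFP-NP 1 and 2 separate, to 2.71, without IL4 1) and for IRF5-NP against eGFP-NP (-5.61 to -2.40, the latter with the replicate block and eGFP-NP 1 and 2 separate, and -2.66 with the fibroblast covariate). Flt1 changed sign in 8 of 17 alternatives for IRF5-NP against IL4 (-1.86, with the fibroblast covariate, to 0.63), in 6 of 18 for eGFP-NP against IL4 and in 10 of 17 for IRF5-NP against eGFP-NP.

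The 199 genes called in MPLA against IL4 became 21 by the methods' t-test with Benjamini-Yekutieli adjustment, 120 with Benjamini-Hochberg, 123 in the fit of all 4 groups, 20 with near-identical pairs merged, 95 with the replicate block, 109 with the fibroblast covariate, and 74 to 295 with a library left out. With housekeeping scaling 46 of 165 were higher, against 92 of 199, and the median of all genes was -0.30. The 4 list genes became 8 by DESeq2, 0 and 1 by the t-test with Benjamini-Yekutieli and Benjamini-Hochberg, 1 with housekeeping scaling, 0 merged, 2 with the block, and 0 to 9 with a library left out. Merging uses fewer samples. For the other changes the cause was not tested.

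The 0 calls of IRF5-NP against IL4 became 19 by DESeq2 and 2 in the fit of all 4 groups. Those of eGFP-NP against IL4 became 56 by DESeq2, 1 by either t-test adjustment, 17 in the fit of all 4 groups, 1 merged, 6 with eGFP-NP 1 and 2 separate, and 0 to 2 with a library left out (2 without IL4 2 or without eGFP-NP 1-2). Those of IRF5-NP against eGFP-NP became 6 by DESeq2, 2 by the t-test with Benjamini-Hochberg, 1 in the fit of all 4 groups, 1 with the filter, 2 with eGFP-NP 1 and 2 separate and 16 with the fibroblast covariate, which called 1 list gene (Pdgfa, named after its values were seen). With the replicate block and eGFP-NP 1 and 2 separate that comparison had 0 calls. Flt1 in MPLA, Edn1 in IRF5-NP and both in IRF5-NP 4 were below background, so only bounds can be read there.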
